A study of Cucumis sativus with 18 samples.

Results

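The comparison described here covers the start of an ovary culture of cucumber (Cucumis sativus): 3 RNA-seq libraries of fresh unpollinated ovaries were set against 3 libraries of ovules cultured for 2 days. Its members are the genes with an RPKM (reads per kilobase of gene per mega reads) of at least 1 in 3 or more of these 6 libraries. They number 16676 of the 23248 genes in the files, or 71.7%, and of the 6572 genes outside, 2198 were at 0 in all 6 libraries. The study followed the culture over 6 times with 3 biological replicates each, and the other 4 times are embryos after 10, 20, 30 and 60 days. No treatment, genotype, medium or number of plants is given in the labels for either group. The tissue label reads ovary for all 6 libraries, while the time label names ovaries for one group and ovules for the other, so the sampled material and the time in culture cannot be told apart. In bulk RNA, likewise, fewer cells of a type and less RNA per cell cannot be told apart.

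In ovary culture, unfertilised ovaries or slices of them are placed on a medium with hormones so that cells of the embryo sac, which carry a single set of chromosomes, may divide into embryos without pollen. The cucumber ovary consists of a wall, placental tissue and many ovules, and each ovule wraps its embryo sac in a nucellus and integuments. The first days on medium expose this tissue to wounding, sugar, hormones and often a change of temperature, before embryos can be seen. The files give genes by ID only, and 0 of the IDs matched the RefSeq table at hand, so genes are described by ID, level and neighbourhood. For the same reason the labelled tissue was not checked against marker genes.

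The depth was 21.8 to 62.8 M (mega) reads assigned to genes, and replicate 3 was the deepest library at both times, at 62.8 M in fresh ovaries and 48.9 M at day 2. Across members, on log2(RPKM + 1), libraries of the same time correlated at r of 0.970 to 0.987 and libraries of different times at 0.733 to 0.762. The SD between the 3 libraries of a time had a median of 13.4% of the mean in fresh ovaries and 15.1% at day 2 for genes at 1 to 10 RPKM. For genes at 10 to 100 RPKM these medians were 9.65% and 10.4%. The gene closest inside the limit for membership, Csa6G525570, was at 1.0009 RPKM or more in 3 libraries, and the closest outside, Csa4G050280, at 0.9993 or more in 3.

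About as many genes were higher at day 2 as were lower, and in most members the difference stayed under 2-fold on the log2(RPKM + 1) scale. By the limma test, with Benjamini-Hochberg adjustment over the 18153 genes tested in the series, 5366 members were higher at day 2 and 5682 lower, together 66.3% of members. Over all tested genes 63.4% were called, 31.1% higher and 32.3% lower. The excess of falls depends on the scaling, since upper quartile scaling gave 5780 members higher and 5229 lower. The median log2 fold change over members was -0.04, and the central 80% of members lay between -1.26 and 1.28. Its absolute value had a median of 0.60 over members, 0.71 with a pseudocount of 0.1 in place of 1 and 0.72 by voom on reads. Among called genes alone, whether most stayed under 2-fold depended on this choice, and they did not in the latter 2 fits. The 3 libraries of one time all lay above the 3 of the other in 5733 members that were higher at day 2 and 6164 that were lower, together 71.3% of members, against 69.3% of all tested genes. The test could reach small changes, with a median SE of 0.15 on the log2 scale. Of the 5628 members not called, 4950 had a change that stayed under 2-fold even with 2 SE added, and 41 had an estimate of 2-fold or more.

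Rises past 16-fold were more frequent than falls of that size, while the balance among smaller changes depended on the processing. On the log2(RPKM + 1) scale, 1394 of the called genes rose by under 1.5-fold and 1453 fell by as little. Between 1.5 and 2-fold, 1635 rose and 1819 fell, and between 2 and 4-fold, 1599 rose and 1902 fell. Upper quartile scaling turned the order in both classes, with 1776 genes higher and 1673 lower in the former and 1753 and 1730 in the latter. From 4 to 16-fold 602 genes were higher and 478 lower, but 812 and 831 at a pseudocount of 0.1 and 812 and 818 by voom on reads. Past 16-fold 136 were higher and 30 lower, or 0.749% and 0.165% of all tested genes. Rises outnumbered falls past 16-fold under each of the 18 alternative fits, with 50 and 4 at a pseudocount of 5 and 439 and 185 by voom on reads. Tested against a 2-fold change with limma's treat, 1273 members were higher and 1103 lower, where 7.01% and 6.08% of all tested genes passed. These counts fell to 662 and 597 with a pseudocount of 5 in place of 1.

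**Figure D1:**
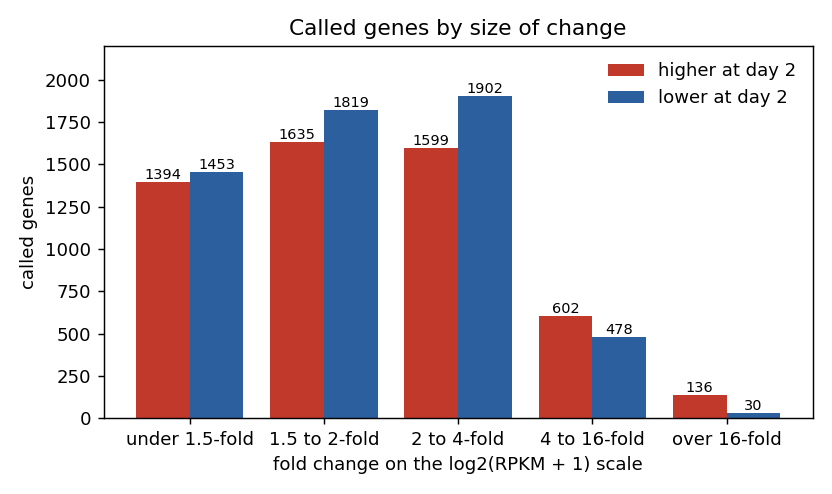
Bars count the called genes in 5 classes of fold change on the log2(RPKM + 1) scale, for genes higher (red) and lower (blue) at day 2 than in fresh ovaries. Falls lead between 1.5 and 4-fold on the RPKM as deposited, 1902 against 1599 in the 2 to 4-fold class, an order that upper quartile scaling turns to 1730 against 1753, and rises lead past 16-fold, 136 against 30.

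The genes with the largest rises started from low levels and reached high ones. The 136 genes that rose over 16-fold had a median RPKM of 1.22 in fresh ovaries and 79.9 at day 2, and 59 of them reached 100 RPKM or more. Together they held 0.123%, 0.126% and 0.122% of the summed RPKM in the 3 fresh libraries and 9.51%, 10.3% and 9.80% in the day 2 libraries. Counted in reads, which weigh long genes more, their share went from 0.0737% ± 0.00370 to 4.63% ± 0.211 (SD, n = 3 each). The 30 genes that fell over 16-fold were fewer and took less of the total. They held 0.766% ± 0.0402 of the summed RPKM in fresh ovaries and 0.0238% ± 0.00261 at day 2. These sets were chosen on the same values, so their shares describe them and test nothing.

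**Figure D2:**
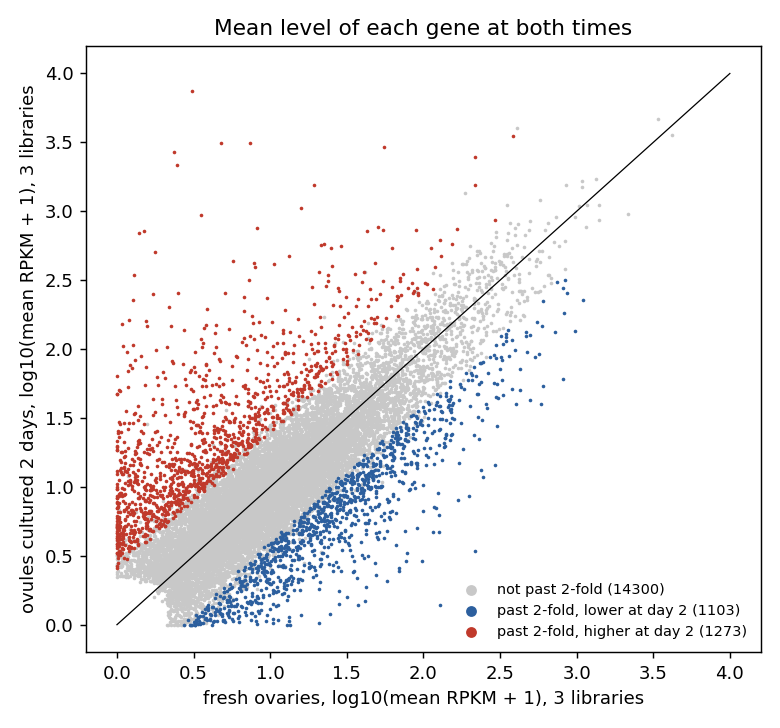
Each point is a gene, with log10(mean RPKM + 1) of the 3 fresh ovary libraries on the x axis and of the 3 day 2 libraries on the y axis; the line marks equal levels. Red points (1273) and blue points (1103) passed the test against a 2-fold change, and the red points reach farther from the line, up to a gene near 7471 RPKM at day 2.

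The most extreme genes show these contrasts library by library. Csa4G000860 stood at 3.88, 0.103 and 2.32 RPKM in the 3 fresh libraries and at 7149, 8177 and 7086 at day 2, where it ranked 1 of all genes by mean RPKM after rank 14035 in fresh ovaries. Replicate 2 of the fresh ovaries held 1 read of it, against 37 and 47 in the others, and the log2 fold change of 11.48 (SE 0.37, limma adjusted p = 5.54e-13) was 10.85 without that library. Its recovered gene length is 322 bases, so its level per length exceeds its share of reads. Csa2G021500 rose from 2.39, 0.738 and 0.889 RPKM to 2465, 2904 and 2681, a log2 fold change of 10.23 (SE 0.21, limma adjusted p = 4.19e-15). In both genes the lowest day 2 library lay far above the highest fresh one, and 100% of the called rises past 16-fold were without overlap.

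The largest falls started from higher levels. CsaUNG012530 went from 90.8, 121 and 171 RPKM to 0.695, 0 and 0.508, on 15 reads in the 3 day 2 libraries together. Csa7G372360 went from 166, 220 and 265 RPKM to 2.66, 1.77 and 2.82, on 209 reads. The log2 fold changes were -6.51 (SE 0.62, limma adjusted p = 1.79e-07) and -5.99 (SE 0.21, limma adjusted p = 1.33e-12). The lowest fresh library exceeded the highest day 2 library in each, as in 100% of the called falls past 16-fold.

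The later libraries entered the shared estimate of spread and the filter but not the fold change. They gave intermediate median levels for both sets. Since the sets were chosen as extremes of the compared times, medians in between at other times largely follow from that choice. The median RPKM of the 136 strong risers was 54.3 at day 10, 51.2 at day 20, 17.4 at day 30 and 6.87 at day 60. All 3 libraries were at 10 RPKM or more for 135 of them at day 2, 103 at day 10, 105 at day 20, 78 at day 30 and 55 at day 60, compared with 9 in fresh ovaries. The 30 strong fallers, at a median of 76.4 RPKM in fresh ovaries and 1.89 at day 2, stood at 12.3, 12.7, 26.7 and 23.2 at the 4 later times in order. Single genes could differ from the medians. Csa4G000860 and Csa2G021500 stayed between their fresh and day 2 means. CsaUNG012530 reached a mean of 158 RPKM at day 30, against 128 in fresh ovaries. Csa7G372360 reached 257 at day 60, against 217 in fresh ovaries.

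A small number of genes went from near absence to presence or the reverse. A gene was counted as switched on where it was under 0.1 RPKM in all 3 fresh libraries and at 1 RPKM or more in all 3 day 2 libraries, and as switched off in the opposite case. By this rule 107 genes were switched on and 36 off, and all of them are members. No read was found in the 3 libraries of the low time for 40 of the genes switched on and 21 of those switched off, and 1 to 3 reads for 39 and 8. Most reached modest levels, with a median of 3.79 RPKM for genes switched on and 2.04 for genes switched off, and 15 and 3 genes were at 10 RPKM or more. Leaving out a library can only keep or raise these counts, since the rule must hold in every library used. Without the deep replicate 3 library of day 2, 74 genes were switched off, against 37 to 51 without any other library. With replicates 1 and 2 alone at both times, 164 genes were switched on and 82 off.

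Csa5G165870 had the highest level of the genes switched on. It had 0 reads in all 3 fresh libraries and 63.4, 64.7 and 61.5 RPKM at day 2, so it was at least 1962-fold higher, taking 3 reads over the 3 fresh libraries as the floor. This gene did not persist, at 0.475 RPKM at day 10, 0.0525 at day 20, 1.23 at day 30 and 0.00602 at day 60. The next, Csa4G017200, had 1, 1 and 0 reads in the fresh libraries and 58.5, 54.6 and 34.4 RPKM at day 2. Its ratio was 2687, with an exact 95% binomial interval of 743 to 22197 that covers counting error only. Unlike the former it stayed at 61.8, 66.3 and 67.7 RPKM at days 10, 20 and 30, and was at 13.3 at day 60.

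Among genes switched off, Csa3G078800 fell from 13.5, 23.2 and 23.1 RPKM to 0, 0.0447 and 0.0498, on 7 reads at day 2. It was measured at 28.2 RPKM at day 10, 29.0 at day 20 and 85.9 at day 30, above its level in fresh ovaries, and at 3.50 at day 60. Csa3G841990 fell from 16.1, 12.4 and 8.95 RPKM to 0 reads in the 3 day 2 libraries, at least 433-fold lower with the floor of 3 reads over the 3 libraries. Its mean was 2.30 RPKM at day 10, 4.89 at day 20, 14.1 at day 30 and 18.4 at day 60, against 12.5 in fresh ovaries. Both genes were therefore read again in later libraries.

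Few of the switched genes kept within the limit of their day 2 state in all 12 later libraries. Of the 107 genes switched on, 56 were at 1 RPKM or more in all 3 libraries at day 10, 56 at day 20, 42 at day 30 and 21 at day 60. All 12 later libraries were at 1 RPKM or more for 15 of them, and all 12 under 0.1 RPKM for 1. Of the 36 genes switched off, 15 were under 0.1 RPKM in all 3 libraries at day 10, 8 at day 20, 6 at day 30 and 7 at day 60, and 2 in all 12. Regained levels of 1 RPKM or more in all 3 libraries were seen for 4, 4, 7 and 7 genes at these times. The median RPKM of all 36 was 0.0608, 0.237, 0.226 and 0.240 at these times, against 2.04 in fresh ovaries. At each later time most genes switched off were thus under 1 RPKM in some library, but the genes that returned differed between times. Csa1G002840 had a mean of 2.14 RPKM at day 20 and 0.106 at day 60, and Csa6G057180 0.0832 and 6.53. The mean lay above that of fresh ovaries for 2, 3, 3 and 6 of the 36 genes at the 4 later times in order.

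**Figure D3:**
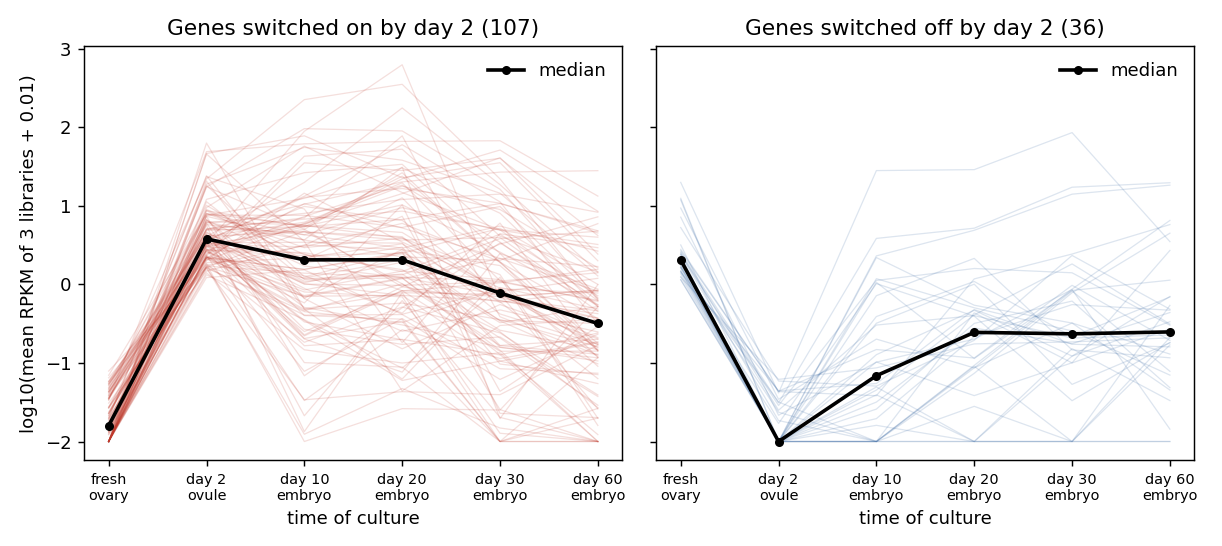
Thin lines follow single genes over the 6 times and the black line is their median; the y axis is log10(mean RPKM of 3 libraries + 0.01). The 107 genes switched on have a median of 3.79 RPKM at day 2 and 0.309 at day 60, and the 36 switched off have a median of 0 at day 2 and 0.240 at day 60.

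The RNA was more concentrated in a few genes at day 2. The 10 most abundant genes held 4.49%, 4.77% and 4.96% of the summed RPKM in the fresh libraries and 7.71%, 10.4% and 8.68% at day 2. The 100 most abundant held 17.4% ± 0.554 and 23.9% ± 1.67 (SD, n = 3 each), with no overlap between the times. Genes at 1000 RPKM or more numbered 13, 13 and 11 in the fresh libraries and 23, 24 and 21 at day 2. Each of these 3 differences had an exact two-sided permutation p of 0.1, the smallest that 3 libraries against 3 allow. The number of genes at 1 RPKM or more was 15847 ± 101 in fresh ovaries and 16099 ± 62.7 at day 2 (exact permutation p = 0.1). The number above 0, which moves with depth, was 19242 to 20029 and 19268 to 20079, so the groups overlapped. By reads, the share of the 100 genes with most reads was 10.6% ± 0.366 and 13.7% ± 1.23.

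**Figure D4:**
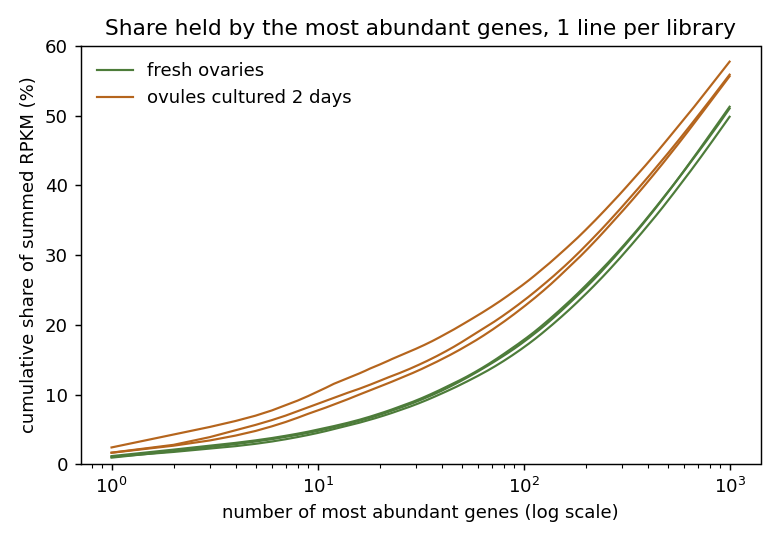
Lines give the cumulative share of summed RPKM (%) held by the most abundant genes of each library, with the number of genes on a log axis. At 100 genes the 3 fresh libraries lie between 16.7% and 17.8% and the 3 day 2 libraries between 22.6% and 25.8%.

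Much of the RNA measured per length had changed place. To turn a fresh library into a day 2 library, 32.6% to 36.6% of the summed RPKM would have to move between genes. Between libraries of the same time this was 7.13% to 8.81% for fresh ovaries and 6.31% to 11.4% for day 2. On the group means the gain was 33.2 percentage points, of which the 10 largest gainers made up 7.33 and the 10 largest losers 1.97 of the equal loss. The gain was thus more concentrated than the loss at the top. The summed RPKM itself was 395847 ± 3562 in fresh ovaries and 433698 ± 7709 at day 2 (exact permutation p = 0.1), a quantity that grows where reads fall in shorter genes.

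Among the 100 most abundant genes by mean, 40 were shared by both times and 60 were replaced. Of the 60 that entered, 57 were called higher and 32 passed the 2-fold test, with a median of 188 RPKM in fresh ovaries and 577 at day 2. Before culture, 23 of them had ranked outside the first 1000 genes and 13 outside the first 5000. Of the 60 that left, 56 were called lower and 27 passed the 2-fold test, and their median went from 481 to 225 RPKM. Only 8 of these left the first 1000 genes and 0 left the first 5000. Since entering or leaving fixes the direction, these counts describe the lists.

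Besides Csa4G000860, the largest gain among genes that entered was that of Csa2G010390. It went from 5.77, 2.98 and 2.59 RPKM to 2865, 3777 and 2760, from rank 11911 to rank 6, and was at 321, 864, 61.1 and 14.8 RPKM at days 10, 20, 30 and 60. The largest losses among genes that left were smaller in fold than these gains. Csa4G295440 went from 1015, 1160 and 1133 RPKM to 251, 213 and 211, a log2 fold change of -2.29 (SE 0.10, limma adjusted p = 1.15e-11), and was at 1153, 568, 516 and 562 RPKM at the 4 later times in order. Csa6G511710 went from 907, 1007 and 1018 RPKM to 132, 141 and 133, a log2 fold change of -2.84 (SE 0.12, limma adjusted p = 7.53e-12), and was at 535, 724, 1090 and 735 RPKM at these times.

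Of the genes among the 100 most abundant at both times, the pair with the smallest change differed in the spread between replicates. Csa2G307850 stood at 1294, 1093 and 1132 RPKM in fresh ovaries and 1105, 998 and 1236 at day 2, with overlapping groups and a log2 fold change of -0.08 (SE 0.12, limma adjusted p = 0.583). Csa2G023940 stood at 1115, 1651 and 352 RPKM and at 1512, 1530 and 237, so that replicate 3 was the lowest at both times. Its log2 fold change of -0.08 had an SE of 0.82 (limma adjusted p = 0.943), and an SE of 0.20 (limma adjusted p = 0.744) with the replicate number as a block. A replicate 3 that lay at least 2-fold below both other libraries, on RPKM + 1, at both times was found for 60 members, and one at least 2-fold above for 3. For replicates 1 and 2, a library apart in this way at both times was found for 2 and 1 members.

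The share of genes that changed differed between classes of level, and the size of change between classes of length. By the mean RPKM over all 18 libraries, 60.8% of members at 1 to 10 RPKM, 71.5% at 10 to 100 and 77.8% at 100 to 1000 were called. The small classes at the ends did not extend this order, with 75.8% of members under 1 RPKM and 75% of the 20 members at 1000 or more. In the 3 classes from 1 to 1000 RPKM, 10.8%, 17.3% and 27.1% passed the 2-fold test, against 16.1% under 1 RPKM and 25.0% at 1000 or more. Since the scale is log2(RPKM + 1), low genes appear to change less than they did. With a pseudocount of 0.1, 1649 members were higher and 1418 lower past a 2-fold change. How far the order of the classes follows from the scale was not tested. The median number of reads over the 6 libraries in those 3 classes was 3393, 12985 and 58342. Among called genes, 51.2% were higher at day 2 in the lowest of the 3 classes, 45.2% in the middle one and 57.0% in the highest. These shares are from the main fit only. Over all called members the share of rises went from 48.6% to 52.5% with upper quartile scaling, and the classes were not recounted under it. By the gene length recovered from the values, 22.4% of the 4172 members of the shortest class, with a median length of 884 bases, passed the 2-fold test, against 6.82% of the 4167 members of the longest class, with a median of 6625 bases. These are the ends of a split at the quartiles of length. The median absolute log2 fold change was 0.89 in the shortest and 0.44 in the longest class. Within members at 10 to 100 RPKM the same shares were 25.9% and 9.50%, with median SEs of 0.18 and 0.11, so short genes were also measured on fewer reads. Whether depth accounts for the difference was not tested.

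Genes that follow each other in the ID order changed in the same direction more often than distant ones. Of 451 pairs of neighbouring members that both passed the 2-fold test, 71.0% changed the same way, as did 56.2% of pairs 2 members apart. Of pairs 50 and 100 members apart it was 49.6% and 48.9%. For called genes these shares were 55.4% for neighbours and 50.8% for pairs 50 apart. Runs of at least 4 neighbouring members past the 2-fold test in one direction numbered 6 for rises and 2 for falls. No source used here states whether reads that match several similar neighbours were shared out or dropped, so values of single genes within a run are uncertain.

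The longest run was 8 consecutive IDs, from Csa4G285730 to Csa4G285800, all higher at day 2, and its genes are named here after their values were seen. The most abundant, Csa4G285760, went from 43.0, 61.8 and 58.8 RPKM to 2711, 2883 and 3254, a log2 fold change of 5.74 (SE 0.16, limma adjusted p = 1.07e-13). Csa4G285780 went from 187, 245 and 216 RPKM to 2624, 2436 and 2356. Csa4G285770, the highest of the run in fresh ovaries at 225, 339 and 308 RPKM, rose least, to 1003, 909 and 689, a log2 fold change of 1.58. In each of the 8 genes the lowest day 2 library lay above the highest fresh one, as their choice by the 2-fold test made likely. Of all called rises of 2 to 4-fold, 98.7% were separated in this way.

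By definition the run ended where the next member did not pass the 2-fold test upward. These members were Csa4G285710, with a log2 fold change of 0.43, and Csa4G286310, with -1.32. Of the IDs in between, which are not members, Csa4G285720, just before the run, was at 0 in all 6 libraries. Csa4G285810, just after it, was at 0.0330 RPKM or less. Together the 8 genes held 0.148% ± 0.0251 of the summed RPKM in fresh ovaries and 1.70% ± 0.0404 at day 2 (SD, n = 3 each). They diverged later. Csa4G285760 was at 1719 RPKM at day 10 and 197 at day 60, Csa4G285730 at 474 and 5.78, and Csa4G285790 at 30.7 and 2.46. Csa4G285770 was at 417 RPKM at day 10 and 604 at day 60.

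**Figure D5:**
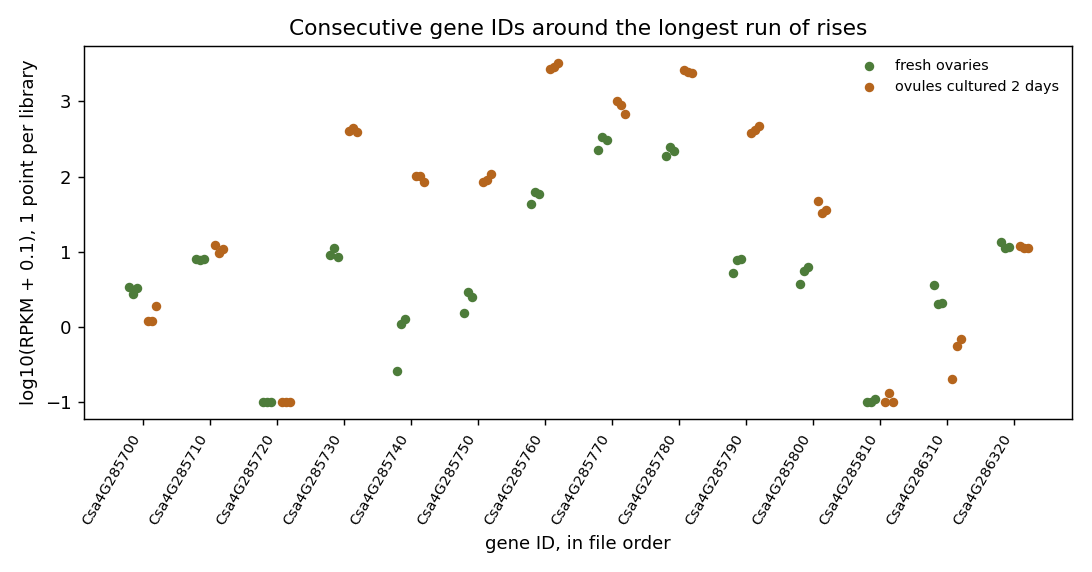
Points are the RPKM of single libraries, on a log10(RPKM + 0.1) axis, for 14 consecutive gene IDs in file order, with fresh ovaries in green and ovules cultured 2 days in brown. In the 8 IDs from Csa4G285730 to Csa4G285800 the 3 day 2 libraries lie above all fresh ones, as the choice of the run made likely. The IDs on either side show small changes, falls or values near 0.

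A second run of rises held 6 neighbouring members from Csa4G303130 to Csa4G303700, with log2 fold changes of 1.87 to 5.61. Its strongest, Csa4G303690, went from 7.11, 7.75 and 6.19 RPKM to 334, 399 and 443. A further run held 5 members from Csa6G500510 to Csa6G500550, with log2 fold changes of 1.39 to 3.49. The 2 runs of falls, of 4 members each, spanned Csa4G008240 to Csa4G008760 and Csa6G502620 to Csa6G502650, with median log2 fold changes of -2.67 and -2.34.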

How the data were processed

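Per the file headers, the authors deposited RPKM values, in 6 tables that list the same 23248 genes and keep the 3 libraries of a time apart. The tools named are TopHat, TopHat2 and HTSeq 0.6.1p2, per the submitters' processing notes; their roles, the genome build and the annotation were not stated in the sources used. Poly(A) RNA was sequenced paired-end on an Illumina instrument, per the labels' protocols, whose text also names an adipose type and may stem in part from another study. In the table of fresh ovaries the 3 names share 1 header cell, and their order there was taken as that of the columns.

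Low values step in multiples of 1 read, which gave library totals and gene lengths for 21761 genes. Each length was the smallest at which every value above 0 lay within 0.05 of a whole read. That closeness is a condition of the recovery and does not check it. For genes with few reads, the recovered length and reads may be too small. At least 99.9995% of the reads lay in these genes. A check for whole factors corrected 1 total, of a later time. Since the libraries carry no molecular identifiers, intervals and floors cover counting error only.

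The test was limma's (version 3.58.1, R version 4.3.3) on log2(RPKM + 1), for 18153 genes that reached 1 RPKM in 3 of the 18 libraries, with 1 coefficient per time, a trended and robust variance, and Benjamini-Hochberg adjustment over all genes tested. A gene was called at an adjusted p under 0.05. Fold changes are given on that log2 scale, where low genes appear to change less than they did. Recovery and fit were tried on simulated data with far fewer changed genes and an equal spread, beyond counting error, for all genes. That setting does not show how the fit behaves here. Counts and exact permutation tests used Python 3.11.15 (scipy 1.17.1, numpy 2.4.6, pandas 2.3.3), and figures used matplotlib 3.10.9.

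Replicate numbers were taken from the titles. Across members, libraries of the same number deviated together from their group means (r of 0.27, 0.32 and 0.66 for numbers 1, 2 and 3). Unlike numbers had r of -0.47 to 0.25. Between numbers 1 and 2 it was 0.15 and 0.25, so these 2 numbers were hardly told apart. The main test did not use the numbers as pairs. They entered only as a block in an alternative fit, and SEs and p-values are unpaired unless the block is named.

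Named genes were the 2 largest rises and falls and the 2 switched on and off with the highest level. Others were the 2 largest gains and losses among genes entering and leaving the 100 most abundant. The last were the 2 with the smallest absolute log2 fold change among genes in the 100 most abundant at both times. Members, lists and this rule were chosen with earlier results of these data known. Lists by function were not described, because 0 IDs matched a name.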

Additional observations from a re-analysis of the deposited data

How the results depend on the processing

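All 342 alternatives of the 19 named genes that were called kept their direction and their call, as their choice for large changes made likely. Of 282 alternatives of counts, 254 stayed within 1.5 times. A pseudocount of 5 gave 662 members higher and 597 lower past a 2-fold change. A ceiling of 0 gave 40 genes switched on and 21 off, a ceiling of 0.5 gave 361 and 187, and a floor of 5 RPKM gave 26 and 5, all by construction. Replicates 1 and 2 alone, chosen after seeing the data, gave 164 and 82, and the use of fewer libraries can only keep or raise these counts. Of the 20 most abundant genes 13 were replaced, and of the 500 most abundant 203. Leaving out 1 library gave 4920 to 5172 members higher, 5205 to 5574 lower, 1155 to 1246 and 959 to 1073 past a 2-fold change, 117 to 140 genes switched on, 37 to 74 off and 58 to 62 entering the 100 most abundant. With the replicate block 5878 members were higher and 6309 lower, with 1458 and 1340 past a 2-fold change, and the pairing changed no call of a named gene. Upper quartile scaling moved the median log2 fold change of members from -0.04 to 0.03 and the share of rises among called members from 48.6% to 52.5%. Voom on reads gave 5365 and 5611. Depth limits low genes most, and replicate 3 is deeper at both times.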
